A study of Rattus norvegicus with 8 samples.

Results

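The 9 genes described here encode transcriptional regulators: the DNA-binding factors Maf, Cebpb, Snai2, Pou3f3, Foxs1, Rhox5 and Plagl1, and the cofactors Fhl2 and Vgll3. They were chosen because their signals differed with migration speed, with the set of cells, or with both, so every contrast below had already been used to choose them. They went through the same model as all probe sets, but their values and calls are given as a description, with no p, and support nothing. All probe sets annotated to these genes were taken, 15 of the 8799 on the array, where 4737 genes were named by a single symbol, and 14 of the 15 passed the filter on low values. The 15th, a Rhox5 probe set, did not.

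C6, a glioma line of the rat that keeps glial features, was the source of all RNA, which was hybridised to 8 oligonucleotide arrays in a study of migration, by the labels. By title there were 4 groups of 2 arrays: fast and slow cells of a set called C6SPGFP, and fast and slow cells of a set called C6. The labels name no treatment, no genotype and no age for any group. What C6SPGFP stands for was not given in the sources used here, nor were the way cells were sorted by speed and whether arrays of a group came from different cultures, so the spread between arrays is possibly technical. All groups share the origin in 1 cell line, and no group of non-tumour cells was analysed here.

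Whether a cell migrates depends in part on which sets of genes its transcription factors keep on. Snai2, also called Slug, represses epithelial adhesion genes and is known from neural crest migration. Cebpb drives inflammatory and acute phase genes and, in human glioma, is known as a regulator of the mesenchymal state. Sequence-specific factors of this kind work with cofactors that bind no DNA themselves: Vgll3 acts through the TEAD factors, which read the Hippo pathway, and Fhl2, a protein made only of LIM domains, moves between focal adhesions and the nucleus.

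Signals below are normalised probe set signals, which have no absolute unit. They were brought to a common distribution on all arrays because C6SPGFP fast replicate 1 had been deposited on another scale, with a 2% trimmed mean of 500.5 against 100.1 to 105.8 on the other 7 arrays. For scale, the 10th, 50th and 90th percentiles of the signal were 2.33, 38.3 and 502. Changes are log2 differences of signal plus 8, with the standard error from a linear model over all arrays (limma), and folds are those of signal plus 8, which understates the change of low signals. A probe set is called where the Benjamini-Hochberg adjusted p of that model, over 6684 probe sets, is below 0.05. Signals of different probe sets are not set against each other as amounts of RNA.

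The C6 fast arrays stood apart. Pearson's r across probe sets was 0.969 to 0.978 between arrays of a group, 0.960 to 0.971 between fast and slow C6SPGFP arrays, and 0.923 to 0.939 between fast and slow C6 arrays. Vim, the intermediate filament vimentin of C6 cells, was at 3720 ± 162 in C6SPGFP fast, 3180 ± 109 in C6SPGFP slow, 2660 ± 91.3 in C6 fast and 2880 ± 284 in C6 slow cells (SD, n = 2 each, as for all means below). S100b, a glial calcium-binding protein, was at 1260 ± 19.4, 1230 ± 6.34, 65.9 ± 12.8 and 408 ± 18.4 in the same order, and Cnp, an enzyme of myelinating glia, at 651 ± 5.61, 1250 ± 65.8, 89 ± 11.4 and 451 ± 91.6. Glul, the glutamine synthetase of astrocytes, went the other way between the sets, at 161 ± 22.1, 179 ± 15.8, 263 ± 46 and 478 ± 17.1, and was lower in C6SPGFP by -0.68 ± 0.19 in fast (adjusted p = 0.0406, limma) and -1.38 ± 0.19 in slow cells (0.00477). Gfap was not analysed here. The summed signal of 7 of 8 listed glial markers ranged over 6540 to 6610 in C6SPGFP fast, 6790 to 6880 in C6SPGFP slow, 3190 to 3460 in C6 fast and 5030 to 5290 in C6 slow cells. Vim had the largest signal of these markers in every group, and the sums are not amounts of RNA. Nes was at 771 ± 76.6, 992 ± 107, 235 ± 63.6 and 933 ± 3.48 in the same order, and Slc1a3 at 15, 14.9, 8.19 and 7.63. Another of these markers, Fabp7, had signals of 1.01, 1.92, 2.55 and 1 in the same order. The part of these glial differences in the regulators' values was not tested. In RNA taken from many cells together, fewer cells of a type and less RNA per cell cannot be told apart. Markers of other cell types were summed in the same way. For 14 of 23 microglial and blood cell markers the sums were 232 to 245, 255 to 267, 307 to 320 and 239 to 267, and C1qb, Itgam, Cd74 and Coro1a stayed below a signal of 5 in every group. Others did not: in the same order, C1qc was at 77.8 ± 3.63, 81.2 ± 9.08, 93.4 ± 3.37 and 92.6 ± 23.9. Ptprc was at 47.3 ± 1.45, 43.7 ± 1.99, 47.3 ± 0.645 and 36.8 ± 11.8, and Cd4 at 28.1 ± 1.67, 38.5 ± 0.601, 47 ± 3.38 and 37.4 ± 13. None of C1qc, Ptprc and Cd4 was called. For 13 of 22 endothelial and mural markers they were 603 to 637, 634 to 709, 588 to 601 and 627 to 696. For 17 of 24 neuronal markers they were 516 to 557, 550 to 643, 406 to 427 and 391 to 466. The markers of other cell types that were called were Gad1, Gap43 and Cd37. The neuronal Gad1 was at 118 ± 11 in C6SPGFP fast, 112 ± 14.9 in C6SPGFP slow, 2.55 ± 0.601 in C6 fast and 24.7 ± 4.49 in C6 slow cells. It was higher in C6SPGFP at either speed, by 3.58 ± 0.22 in fast (adjusted p = 1.97e-05) and 1.88 ± 0.22 in slow cells (0.00249), and changed by -1.62 ± 0.22 in fast against slow C6 cells (0.00241). The neuronal Gap43 was higher in C6SPGFP fast than in C6 fast cells by 0.94 ± 0.27 (0.0475). The leukocyte gene Cd37 was lower in C6SPGFP fast than in C6 fast cells (-1.10 ± 0.30, 0.0417) and higher in C6 fast than in C6 slow cells (1.41 ± 0.30, 0.0271). Their part in the regulators' values was not tested.

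Promoters of the genes came from RefSeq on build GRCr8, as windows of the 250 bases before an annotated start. The table held 7 windows for 5 of the 9 genes: Maf, Plagl1, Cebpb, and a pair each for Vgll3 and Fhl2. Each window was searched on both strands for 6 motifs tied to the regulators by textbook knowledge: the TEAD site ACATTCC, the AP-1 site TGANTCA, the core of the cyclic AMP response element TGACG, the Snail E-box CACCTG, the Maf recognition core TGCTGAC, and the CArG box of serum response factor. Of 33469 rat promoter windows of the same length, 3.52% held the TEAD site, 6.34% the AP-1 site, 18.2% the TGACG core, 15.9% the E-box, 3.53% the Maf core and 1.5% the CArG box. The 4 windows below are shown because they hold these letters, with the matches in capitals, each read in the direction of its gene. The first Fhl2 window lies at chr9:52954541-52954790 (minus strand), the second at chr9:52923327-52923576 (minus strand), that of Cebpb at chr3:176816755-176817004 (plus strand) and the first of Vgll3 at chr11:17089342-17089591 (plus strand).
Vgll3, first window: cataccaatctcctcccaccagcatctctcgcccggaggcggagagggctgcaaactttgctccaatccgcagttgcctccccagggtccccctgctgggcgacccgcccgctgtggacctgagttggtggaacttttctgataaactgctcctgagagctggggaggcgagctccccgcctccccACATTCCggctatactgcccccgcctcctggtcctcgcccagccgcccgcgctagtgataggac
Cebpb: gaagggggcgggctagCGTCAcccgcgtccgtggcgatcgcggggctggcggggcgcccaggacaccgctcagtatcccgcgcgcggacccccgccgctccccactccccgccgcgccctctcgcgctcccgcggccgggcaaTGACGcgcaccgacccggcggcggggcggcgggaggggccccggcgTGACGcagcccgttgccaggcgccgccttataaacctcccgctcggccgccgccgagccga
Fhl2, first window: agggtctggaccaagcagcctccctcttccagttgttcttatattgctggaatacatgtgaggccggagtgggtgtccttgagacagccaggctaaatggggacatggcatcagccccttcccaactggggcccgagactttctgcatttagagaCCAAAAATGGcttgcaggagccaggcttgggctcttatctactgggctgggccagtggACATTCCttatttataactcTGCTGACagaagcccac
Fhl2, second window: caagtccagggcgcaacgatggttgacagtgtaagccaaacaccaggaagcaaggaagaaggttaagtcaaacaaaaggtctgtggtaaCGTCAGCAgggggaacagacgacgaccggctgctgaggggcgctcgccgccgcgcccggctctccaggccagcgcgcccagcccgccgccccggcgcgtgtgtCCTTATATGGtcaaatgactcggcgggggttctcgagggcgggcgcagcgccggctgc

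The first Fhl2 window held a CArG box 95 bases before the start, a TEAD site 37 bases before it and a Maf core 17 bases before it. The second held another CArG box 58 bases before the start, and, 161 and 160 bases before it, an overlapping TGACG core and Maf core on the other strand. The Cebpb window held the TGACG core 3 times, at 234, 107 and 61 bases before the start, the farthest on the other strand, and was 80.0% G and C, against a median of 51.2% over all windows. The first Vgll3 window held the TEAD site 64 bases before the start. Its second window, at chr11:17089994-17090243 (plus strand), held an AP-1 site and, on the other strand, an E-box. These overlap by a few bases, 79 and 83 bases before the second start. The second windows of Vgll3 and Fhl2 lie downstream of the first annotated start of their gene, so their matches may be letters of the gene itself. The Maf and Plagl1 windows held none of the 6 motifs. These are matches of letters and no evidence of binding.

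Fhl2, Snai2 and Cebpb were high in the C6 set: each was far lower in C6SPGFP cells at either speed, and each was highest in C6 fast cells. The Fhl2 signal was 3.78 and 4.53 on the C6SPGFP fast arrays, 6.5 and 5.72 on the C6SPGFP slow arrays, 814 and 786 on the C6 fast arrays and 165 and 198 on the C6 slow arrays. No array of the C6SPGFP set came near the C6 arrays, and fast and slow C6 cells did not overlap either. In fast cells Fhl2 was 66.5-fold lower in C6SPGFP (log2 change -6.06 ± 0.19, SE), and in slow cells 13.4-fold lower (-3.74 ± 0.19). The change with speed was -0.22 ± 0.19 within C6SPGFP and 2.10 ± 0.19 within C6, 4.28-fold higher in fast cells. Among all probe sets its level stood at the 15.8th percentile in C6SPGFP fast cells, where a signal of a few units may be background, and at the 93.6th in C6 fast cells.

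Snai2, the zinc-finger repressor named above, was at 3.32 and 3.31 on the C6SPGFP fast arrays, 2 and 3.2 on the C6SPGFP slow arrays, 123 and 76.3 on the C6 fast arrays and on the C6 slow arrays 43.8 and 45.4. The C6SPGFP arrays lay near the bottom of the scale, and the C6 fast arrays were above the C6 slow ones but far apart from each other. The log2 change between the sets was -3.21 ± 0.26 in fast and -2.31 ± 0.26 in slow cells. Between fast and slow cells it was 0.10 ± 0.26 in C6SPGFP and 1.0 ± 0.26 in C6, neither of them called. Measured with smaller contrast, the main Cebpb probe set gave 56.4 and 64.1 on the C6SPGFP fast arrays, 44.8 and 56.1 on the C6SPGFP slow arrays, 367 and 319 on the C6 fast arrays and 205 and 146 on the C6 slow arrays. Fast and slow C6SPGFP cells were nearly level, and all C6 arrays lay above all C6SPGFP arrays. Its log2 change was -2.36 ± 0.22 between the sets in fast cells, -1.64 ± 0.22 in slow cells and 0.95 ± 0.22 between fast and slow C6 cells. The other Cebpb probe set had lower signals, 4.28 ± 1.69, 3.25 ± 1.97, 125 ± 10.9 and 43.6 ± 8.22 for C6SPGFP fast, C6SPGFP slow, C6 fast and C6 slow cells, and went the same way on every comparison.

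Maf, a leucine zipper factor known from lens and immune cell development, was higher in fast than in slow cells of either set and lower in C6SPGFP than in C6 cells at either speed. Its brightest probe set gave 73.6 and 103 on the C6SPGFP fast arrays, 23.1 and 21.4 on the C6SPGFP slow arrays, 380 and 373 on the C6 fast arrays and 126 and 74.2 on the C6 slow arrays. No fast array overlapped the slow arrays of its own set, while C6SPGFP fast and C6 slow cells overlapped. The log2 change with speed was 1.66 ± 0.26 in C6SPGFP and 1.87 ± 0.26 in C6, a difference of -0.21 ± 0.37, less than its standard error. Between the sets it was -2.01 ± 0.26 in fast and -1.80 ± 0.26 in slow cells. A second probe set gave 26.8 and 27, 4.09 and 4.64, 123 and 97.6, and 33.1 and 40.7 on the arrays in the same order, with changes with speed of 1.5 ± 0.22 in C6SPGFP and 1.39 ± 0.22 in C6. The third, with signals of 3.74 and 4.53 on the C6SPGFP fast, 2.45 and 2.5 on the C6SPGFP slow, 35.1 and 35 on the C6 fast arrays, and 5.24 and 6.92 for C6 slow cells, gave changes with speed of 0.21 ± 0.24 in C6SPGFP and 1.61 ± 0.24 in C6. Their difference was -1.40 ± 0.33 for this probe set, which was not called, and 0.10 ± 0.31 for the second. The C6SPGFP signals of the third probe set lay near the bottom of the scale, where changes are understated. Its small change in C6SPGFP therefore cannot decide whether it departs from the nearly equal changes of the others. Like them, it was higher on the fast than on the slow arrays of either set.

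Vgll3 differed with speed, and its levels in the 2 sets overlapped. Its signal was 40.9 and 37.1 on the C6SPGFP fast arrays, 143 and 120 on the C6SPGFP slow arrays, 40.3 and 26.8 on the C6 fast arrays and 122 and 111 on the C6 slow arrays. All fast arrays lay below all slow arrays, and the arrays of the sets overlapped at either speed. The log2 change with speed was -1.56 ± 0.22 in C6SPGFP and -1.60 ± 0.22 in C6, 2.96-fold and 3.03-fold lower in fast cells. The difference of the changes was 0.04 ± 0.31. Between the sets the change was 0.19 ± 0.22 in fast and 0.16 ± 0.22 in slow cells.

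**Figure D1:**
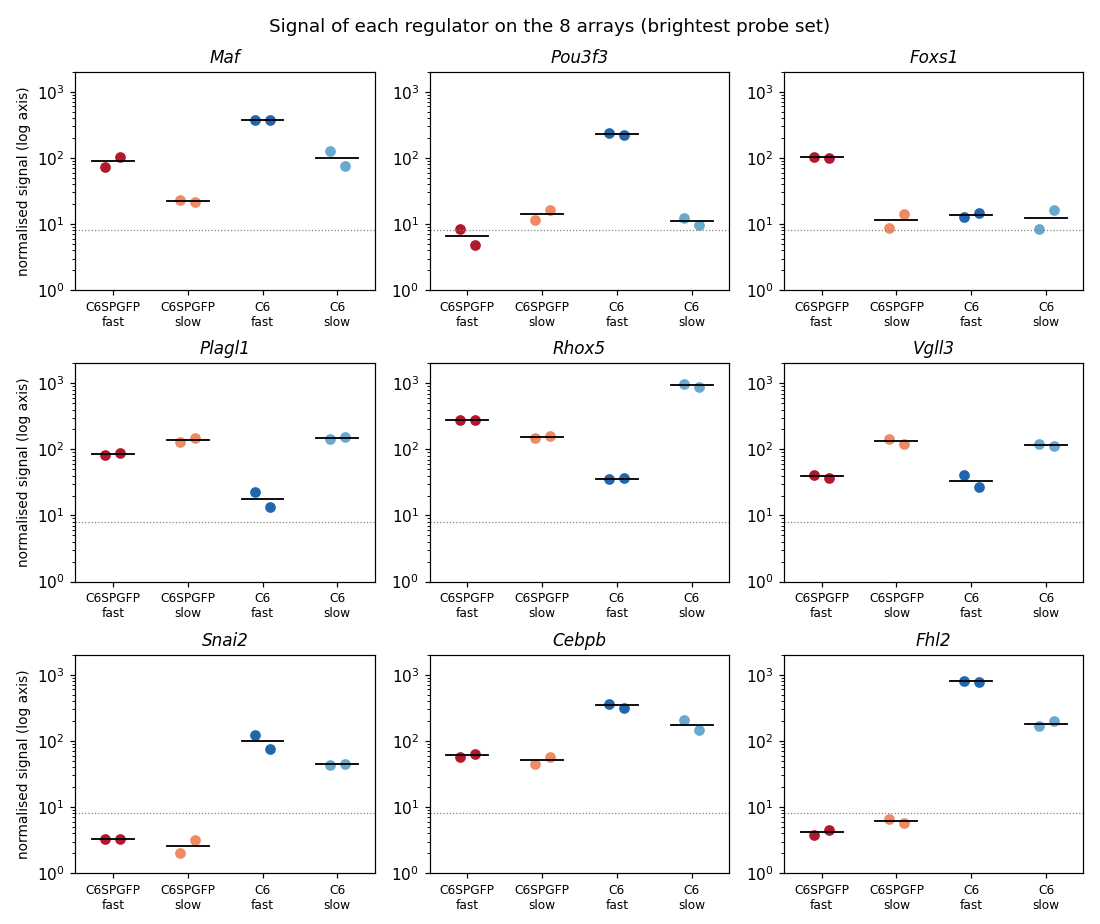
Normalised signal (log axis) of the brightest probe set of each of the 9 regulators on every array, 1 panel a gene, with C6SPGFP fast, C6SPGFP slow, C6 fast and C6 slow cells from left to right and 2 points a group. Fhl2, Snai2 and Cebpb were high in the C6 set, Pou3f3 in C6 fast cells, with signals of 241 and 219, and Foxs1 in C6SPGFP fast cells, with signals of 103 and 100.

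Pou3f3 and Foxs1 were each high in a single group. Pou3f3, a POU-domain factor of cortical neurons that is also called Brn1, gave 8.5 and 4.81 on the C6SPGFP fast arrays, 11.6 and 16.3 on the C6SPGFP slow arrays, 241 and 219 on the C6 fast arrays and 12.4 and 9.8 on the C6 slow arrays. All 3 other groups lay far below the C6 fast arrays, and C6SPGFP slow and C6 slow cells overlapped. The log2 change with speed was -0.59 ± 0.24 in C6SPGFP, with no overlap of the arrays, and 3.64 ± 0.24 in C6, the other way and 12.5-fold, which was 7th among the largest increases of that comparison. These changes differed by -4.23 ± 0.34. In fast cells it was 16.4-fold lower in C6SPGFP than in C6.

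Foxs1, a forkhead factor that in mice is known from the neural crest and its sensory neurons, was at 103 and 100 on the C6SPGFP fast arrays, 8.66 and 14.3 on the C6SPGFP slow arrays, 12.6 and 14.8 on the C6 fast arrays and 8.26 and 16.2 on the C6 slow arrays. Only the C6SPGFP fast arrays were high, and the other 3 groups overlapped. The log2 change with speed was 2.5 ± 0.27 in C6SPGFP, 5.67-fold, and 0.13 ± 0.27 in C6, a difference of 2.38 ± 0.38. Between the sets it was 2.34 ± 0.27 in fast and -0.04 ± 0.27 in slow cells. C6SPGFP fast replicate 1 is the array deposited on another scale, and replicate 2, deposited on the common scale, gave 100.

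Plagl1, and Rhox5 by its brightest probe set, were lower in C6 fast cells than in every other group. Rhox5, a homeobox gene on the X chromosome that is known from the testis and placenta, gave 281 and 276 on the C6SPGFP fast arrays, 149 and 157 on the C6SPGFP slow arrays, 35.3 and 37.1 on the C6 fast arrays and 976 and 893 on the C6 slow arrays. No groups overlapped, and the order from high to low was C6 slow, C6SPGFP fast, C6SPGFP slow and C6 fast. Rhox5 was 1.78-fold higher in fast than in slow C6SPGFP cells (0.83 ± 0.16), but 21.3-fold lower in fast than in slow C6 cells (-4.41 ± 0.16), 6th among the largest decreases. The changes differed by 5.25 ± 0.22, and the change between the sets was 2.70 ± 0.16 in fast and -2.55 ± 0.16 in slow cells. The other Rhox5 probe sets did not show the full order. One gave 22.1 ± 2.13, 26.4 ± 0.849, 35.8 ± 5.59 and 27.4 ± 4.38 for C6SPGFP fast, C6SPGFP slow, C6 fast and C6 slow cells, with log2 changes with speed of -0.20 ± 0.22 in C6SPGFP and 0.31 ± 0.22 in C6. The probe set below the filter gave 0.763 and 1.78, 2.17 and 1.26, 2.22 and 2.65, and 10.1 and 6.05 on the arrays in the same order, highest in C6 slow cells like the brightest probe set, but near the bottom of the scale throughout. The size of the Rhox5 changes therefore rests on 1 of 3 probe sets, and so does the low level in C6 fast cells. In neither of the others were C6 fast cells the lowest group. The other tested probe set went opposite to the brightest with speed in both sets. It also did so between the sets in fast cells (-0.54 ± 0.22), with none of these changes called.

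Plagl1, an imprinted zinc-finger factor also called Zac1 that halts the cell cycle in cultured cells, was at 82.1 and 88.6 on the C6SPGFP fast arrays, 129 and 151 on the C6SPGFP slow arrays, 22.6 and 13.2 on the C6 fast arrays and 144 and 152 on the C6 slow arrays. Fast cells were lower than slow cells in either set, and the slow cells of the sets overlapped. The log2 change with speed was -0.66 ± 0.22 in C6SPGFP, which was not called, and -2.61 ± 0.22 in C6, a difference of 1.95 ± 0.32. The second probe set, at 23.9, 45.4, 2.69 and 35.6 in C6SPGFP fast, C6SPGFP slow, C6 fast and C6 slow cells, gave -0.75 ± 0.28 in C6SPGFP and -2.01 ± 0.28 in C6.

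**Figure D2:**
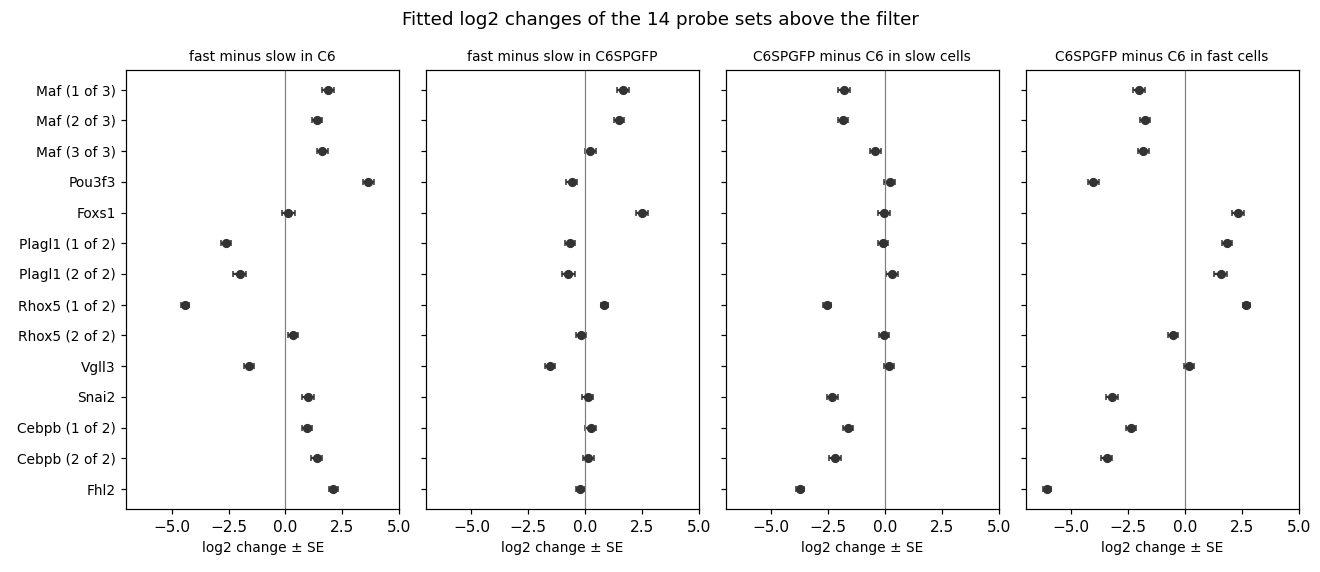
Log2 change of every tested probe set of the 9 regulators, with bars of 1 standard error, in the 2 comparisons of fast with slow cells and the 2 comparisons of C6SPGFP with C6 cells. Fhl2 had the largest change, -6.06 between the sets in fast cells, while Vgll3 was near 0 between the sets and near -1.6 with speed in both sets.

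Genes with more than 1 probe set were compared over the 8 arrays, which form 4 groups of 2, so that r describes mainly the order of 4 levels. Pearson's r of log2 signals was 0.97, 0.9 and 0.89 for the pairs of Maf probe sets, 0.95 for those of Plagl1 and 1 for those of Cebpb. For Rhox5 the brightest probe set had r of -0.57 and 0.62 with the others, which had 0.06 with each other.

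**Figure D3:**
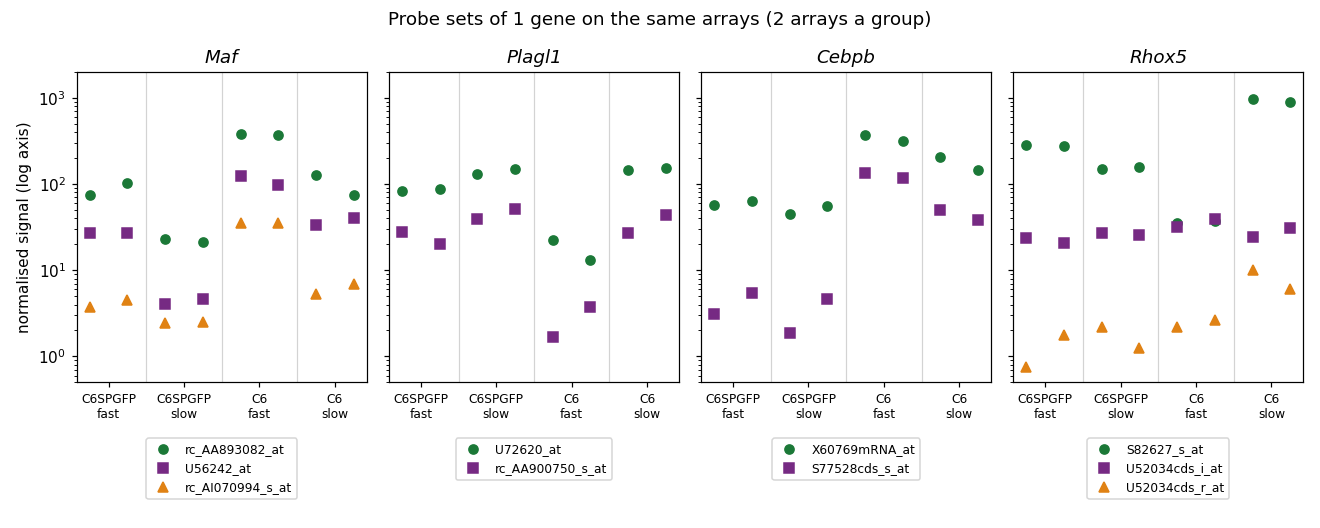
Normalised signal (log axis) of all probe sets of Maf, Plagl1, Cebpb and Rhox5 on each array, with C6SPGFP fast, C6SPGFP slow, C6 fast and C6 slow cells from left to right. The probe sets of Maf, Plagl1 and Cebpb ran in parallel, with r from 0.89 to 1, and those of Rhox5 did not.

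Across the arrays, Snai2, Cebpb and Fhl2 had nearly the same profile, with r of 0.99 between Snai2 and Cebpb, 0.99 between Snai2 and Fhl2 and 0.98 between Cebpb and Fhl2. Plagl1 ran with Rhox5 and with Vgll3 (0.82 each) and opposite to Pou3f3 (-0.91) and Maf (-0.84). Foxs1 had r between -0.55 and 0.12 with the other 8 genes. These values share the same 8 arrays and describe 4 groups.

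The genes with profiles most like each member were taken from 3869 genes by r over the 8 arrays, which reads the shape of a profile and not its size. Pou3f3 was closest to the nuclear receptor Nr2f2 (r = 0.991), which was at 37.1, 46.7, 258 and 56.2 in C6SPGFP fast, C6SPGFP slow, C6 fast and C6 slow cells. It was followed by the phospholipase Pla2g4a (0.99), at 8.31, 12.2, 478 and 9.32, and the cyclooxygenase Ptgs2 (0.99), at 1.19, 3.24, 136 and 3.19. Foxs1 was closest to Ass1 (0.985), an enzyme of arginine synthesis, at 89.7, 1.34, 1.08 and 1.77, to the receptor gene Gnrhr (0.983), at 90.5, 1.12, 0.825 and 1.54, and to the synuclein Sncg (0.98), at 190, 1.79, 2.09 and 2.29. All 3 were near the bottom of the scale except in C6SPGFP fast cells.

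Maf was closest to the carboxypeptidase inhibitor latexin, Lxn (0.993), at 194, 86.7, 503 and 235 in C6SPGFP fast, C6SPGFP slow, C6 fast and C6 slow cells, and to Gsta4 and Pde7a (0.986 each). Plagl1 was closest to the protein kinase A inhibitor Pkia (0.988), at 78.8, 159, 16.6 and 141, then to Aopep (0.98) and Cr1l (0.975). Rhox5 was closest to Gchfr (0.984), a regulator of tetrahydrobiopterin synthesis, at 370, 232, 152 and 553, then to the Wnt receptor Fzd2 (0.973) and the actin-capping protein Capg (0.961). Vgll3 had the least close neighbours, the peptide adrenomedullin, Adm (0.941), at 53.4, 123, 32.8 and 110, Ppp1r15a (0.923) and RatNP-3b (0.91). For Snai2 these were Chd2 (0.994), Pim3 (0.993) and Hdlbp (0.986), for Cebpb Dock8 (0.988), Casq1 (0.985) and Gsk3b (0.984), and for Fhl2 Hdlbp (0.992), Serp1 (0.99) and Patj (0.987). Hdlbp, an RNA-binding protein, shows that shape and size differ: its signals of 570, 568, 1100 and 879 differed far less between the groups than those of Fhl2.

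Between fast and slow C6 cells 11 of the 14 tested member probe sets were called, from 7 genes, against 6.66% of all 6684 probe sets. Of these, 7 were higher in fast cells, against 2.69% of all, and 4 lower, against 3.96%. Between fast and slow C6SPGFP cells 5 were called, from Maf, Foxs1, Rhox5 and Vgll3, against 1.39% of all, with 4 higher (1.06%) and 1 lower (0.329%). The difference of those changes was called for 5, of Pou3f3, Foxs1, Plagl1, Rhox5 and Fhl2, against 3.82%, with 3 positive (2.71%) and 2 negative (1.11%). Between the sets 7 were called in slow cells, against 6.34%, with 0 higher in C6SPGFP (3.29%) and 7 lower (3.05%). In fast cells 12 were called, against 15.6%, with 4 higher (8.29%) and 8 lower (7.3%). The genes had been chosen on these contrasts, so nothing is read from these shares. The calls within C6SPGFP depended on single arrays: without C6SPGFP fast replicate 2 none of the 5 was left, and without C6SPGFP fast replicate 1 or either C6SPGFP slow array Foxs1 alone was left. The Rhox5 call was lost on every leave-out. The difference was called for 3 without C6SPGFP slow replicate 1 or C6SPGFP fast replicate 2, where Foxs1 and Plagl1 lost the call. In C6, both Cebpb calls were lost without either C6 fast array or the second C6 slow array, and 1 of them without any C6SPGFP array. Between the sets, 1 Maf call in slow cells was lost without C6SPGFP slow replicate 2, and 1 Plagl1 call in fast cells without C6SPGFP fast replicate 1. All 40 called member values kept their sign whichever array was left out. This was largely fixed beforehand, since the genes were chosen on these contrasts. In every called comparison between groups their arrays did not overlap.

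**Figure D4:**
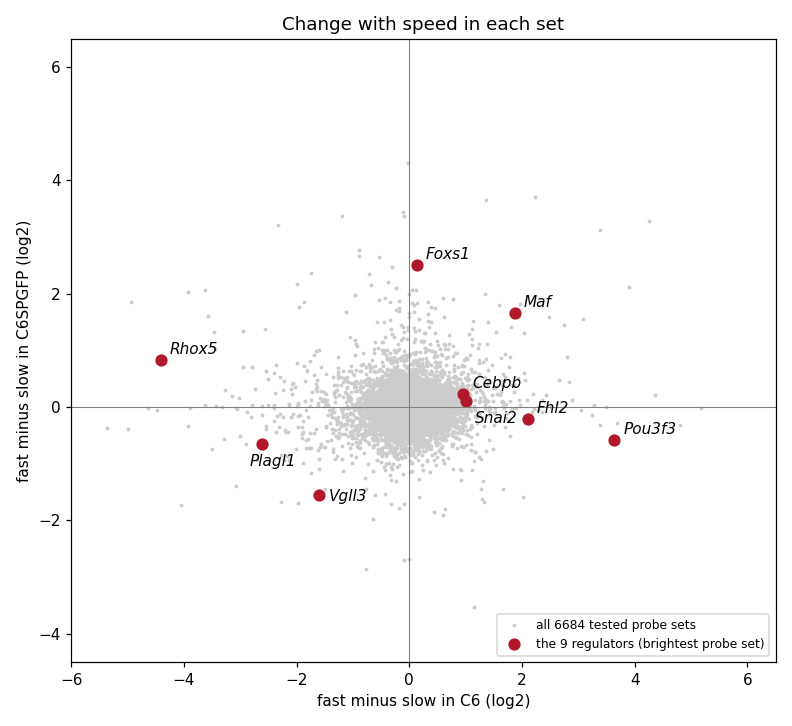
Log2 change of fast minus slow cells in C6SPGFP against that in C6 for all 6684 tested probe sets (grey) and for the brightest probe set of each of the 9 regulators (labelled). Maf and Vgll3 had nearly equal changes in both sets, while Pou3f3, Fhl2, Plagl1 and Rhox5 had a change that was larger in size in C6 than in C6SPGFP.

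How other regulators behaved was taken from 605 listed transcription factors and cofactors outside the 9, of which 253 had a probe set and 210 were tested. Between fast and slow C6 cells 12 rose and 10 fell, 10.5% of those tested, against 6.66% of all probe sets. Their median log2 change was 0.06, against 0.01 over all probe sets. Sox10, the factor of oligodendrocytes and Schwann cells, fell by 5.0 on the log2 scale (SE 0.22; adjusted p = 5.86e-06, limma), at 1.56 ± 0.937 in C6 fast against 304 ± 89.8 in C6 slow cells. Nr2f2, an orphan nuclear receptor also called COUP-TFII, rose by 2.05 ± 0.19 (adjusted p = 0.00033), at 258 ± 4.91 against 56.2 ± 4. Max, the partner of Myc, rose by 1.94 ± 0.33 (0.00868), although its C6 fast arrays were far apart, at 60.3 ± 33 against 8.68 ± 0.00884. Hif1a, the oxygen-sensing factor, rose by 1.42 ± 0.24 (0.00858), a call lost without C6 fast replicate 2 (0.0654). Nfix, a nuclear factor I gene, rose by 1.25 ± 0.27 (0.0303), a call lost in 5 of 8 leave-outs, namely of C6 fast replicate 2 and of any slow array, with adjusted p from 0.0587 to 0.128. The interferon regulatory factor Irf7 changed by -2.41 ± 0.35 (0.00362). The immediate early genes Egr2 and Nr4a1 changed by -1.70 ± 0.30 each (0.0107 and 0.0104), and lost the call without C6 fast replicate 1 (0.0653 for Nr4a1), Egr2 also without C6 fast replicate 2 (0.0562 and 0.0571 in the 2 runs).

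Between fast and slow C6SPGFP cells the median of the 210 was -0.01, against -0.02 over all probe sets. Of them 3 rose and 0 fell, 1.43%, against 1.39% of all probe sets. These were Srebf1, the factor of lipid synthesis (1.77 ± 0.27, adjusted p = 0.0179), the retinoid receptor Rxrg (1.55 ± 0.21, 0.0108) and Klf4 (1.01 ± 0.15, 0.0179). Srebf1 and Klf4 lost the call without any 1 of the C6SPGFP arrays, with adjusted p from 0.0736 to 0.175 and 0.0943 to 0.175, and Rxrg without either C6SPGFP fast array or C6SPGFP slow replicate 2, from 0.0642 to 0.116. An unadjusted p below 0.05 was reached by 20 of the 210, and by 648 of all 6684 probe sets.

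Between the sets in fast cells 16 of the 210 were higher and 15 lower in C6SPGFP, 14.8%, against 15.6% of all probe sets. The median was -0.05, against -0.03 over all probe sets. Sox10 was higher by 5.49 ± 0.22 (adjusted p = 2.73e-06), at 422 ± 15.3 in C6SPGFP fast against 1.56 ± 0.937 in C6 fast cells, Egr2 by 3.32 ± 0.30 (0.000196), Nr4a1 by 2.88 ± 0.30 (0.000436) and the LIM homeobox gene Lhx2 by 1.87 ± 0.18 (0.000326). Nr2f2 was lower by -2.56 ± 0.19 (6.05e-05), Nfix by -1.88 ± 0.27 (0.00226), the mineralocorticoid receptor Nr3c2 by -1.79 ± 0.23 (0.0012) and Hif1a by -1.58 ± 0.24 (0.00278). In slow cells 9 were higher and 7 lower, 7.62%, against 6.34% of all probe sets. The median was 0.01, the same as over all probe sets. Those named are Max (2.20 ± 0.33, 0.00669), Egr2 (2.07 ± 0.30, 0.00627), Egr1 (1.60 ± 0.16, 0.00132) and Cited1 (1.57 ± 0.26, 0.0108), which were higher in C6SPGFP. Ankrd1 (-1.60 ± 0.33, 0.0277), the clock gene Bmal1 (-1.39 ± 0.20, 0.00621), Id3 (-1.23 ± 0.14, 0.00231) and Cited2 (-1.22 ± 0.20, 0.0103) were lower. Of these, Egr1 and Id3 passed in all 8 leave-outs. Max and Bmal1 were lost without C6SPGFP slow replicate 1 (0.0582 and 0.0543) and Egr2 without C6SPGFP slow replicate 2 (0.058). Cited1 (0.0531 to 0.0843) and Cited2 (0.0597 to 0.0761) were lost without either C6SPGFP slow array or C6 slow replicate 1. Ankrd1 was lost without any slow array or C6SPGFP fast replicate 2 (0.0515 to 0.152).

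Relatives with a probe set were found only for Maf, Cebpb, Pou3f3, Snai2 and Foxs1, and few of them were called. Of all probe sets, 1.39% to 15.6% were called in the 5 comparisons, so nothing is read from the missing calls. The C/EBP genes Cebpa, Cebpd, Cebpe and Cebpg and their inhibitor Ddit3 were called in none of the 5 comparisons, with adjusted p from 0.0702 to 0.996. Cebpd, which shares inflammatory roles with Cebpb, was at 105 ± 13.8, 100 ± 5.02, 121 ± 20.1 and 111 ± 3.76 in C6SPGFP fast, C6SPGFP slow, C6 fast and C6 slow cells. Mafk, the only other Maf gene tested, was at 130 ± 12.7, 137 ± 27.2, 132 ± 1.8 and 167 ± 29.4 and was not called, with adjusted p from 0.484 to 0.972. The 12 other forkhead genes tested gave no call, with adjusted p from 0.0723 to 0.997, and 1, 0, 0, 1 and 1 of them reached an unadjusted p below 0.05 in C6, in C6SPGFP, on the difference, and between the sets in slow and in fast cells. Of the POU genes, Pou3f2, a close relative of Pou3f3, was higher in C6SPGFP slow than in C6 slow cells, at 107 ± 0.141 against 54.2 ± 11.3 (0.90 ± 0.21, adjusted p = 0.042), and was not called with speed. Zeb1, which like Snai2 represses epithelial genes, rose in fast C6 cells, at 118 ± 47.8 against 44 ± 14.2 in slow cells (1.25 ± 0.30, adjusted p = 0.0456). Pou3f2 and Zeb1 lie close to the threshold.

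Genes known as targets of these regulators, or tied to the same process, were counted in 6 lists, whose membership rests on general knowledge of other cells. The share of a list that was called ran from 4.55% to 20% in fast against slow C6 cells, against 6.66% of all probe sets, and from 0% to 4.55% in fast against slow C6SPGFP cells, against 1.39%. Between the sets it ran from 9.52% to 20% in slow cells, against 6.34%, and from 10% to 28.6% in fast cells, against 15.6%. With 10 to 25 genes a list, 1 call moves these shares by several percent, and nothing particular to a list is read from them. An unadjusted p below 0.05, given below for some lists in fast against slow C6SPGFP cells, was reached there by 648 of all 6684 probe sets. Of 25 epithelial, mesenchymal and adhesion genes tied to Snai2, 1 rose and 2 fell in fast C6 cells, 1 rose in fast C6SPGFP cells, and between the sets 0 were higher and 3 lower in slow and 4 higher and 1 lower in fast cells. Jup, the junction protein plakoglobin, was at 144 ± 0.53 in C6 fast against 14.9 ± 3.82 in C6 slow cells (2.75 ± 0.42, adjusted p = 0.00521). The epithelial adhesion gene Epcam was lower in C6 fast cells, at 92.3 ± 17.1 against 209 ± 56.3 (-1.10 ± 0.23, 0.0223), a call lost without C6 fast replicate 2, C6 slow replicate 1 or C6SPGFP slow replicate 1 (0.0501 to 0.127). In fast cells it was higher in C6SPGFP, at 390 ± 51.7 (1.99 ± 0.23, 0.000686). Col1a1, a collagen chain, changed by -0.75 ± 0.18 in fast C6 cells (0.0462), a call lost on each of the 8 leave-outs (0.0555 to 0.149). Fibronectin, Fn1, rose in fast C6SPGFP cells by 0.90 ± 0.12 (0.00996), a call lost without replicate 2 of either C6SPGFP group (0.11 and 0.111). The list's medians were -0.11, 0.15, -0.04 and -0.05 in these comparisons.

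Of 25 genes known as C/EBP targets or of the inflammatory programme, 2 rose and 2 fell in fast C6 cells, 1 rose in fast C6SPGFP cells, and 1 was higher and 2 lower in slow and 3 higher and 3 lower in fast C6SPGFP cells than in C6 cells, with medians of 0.05, 0.05, -0.08 and -0.17. Ptgs2 rose by 3.69 ± 0.24 in fast C6 cells (adjusted p = 6.53e-05), and Igf1 by 2.04 ± 0.34 (0.00783). The chemokine Ccl2 was at 147 ± 69.7 in C6 fast against 1740 ± 185 in C6 slow cells (-3.57 ± 0.29, 0.000156), and the cytokine Il6 at 5.29 ± 2.96 against 32.6 ± 1.1 (-1.63 ± 0.31, 0.0149). Ccl2 was higher in C6SPGFP fast than in C6SPGFP slow cells, at 948 ± 185 against 305 ± 18.6 (1.60 ± 0.29, 0.0342), a call lost in 6 of 8 leave-outs, namely of all but the C6 fast arrays (0.0531 to 0.268). The Il6 call in C6 was lost without C6 fast replicate 2 or either C6 slow array (0.0555 to 0.0968). In fast cells Trib3, a stress-induced pseudokinase, was lower in C6SPGFP (-2.37 ± 0.40, 0.005) and the receptor Cd14 higher (1.02 ± 0.20, 0.0111), the second call lost without C6 fast or C6SPGFP fast replicate 1 (0.0566 and 0.0771).

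Of 10 genes known as targets of TEAD factors, the partners of Vgll3, 2 fell in fast C6 cells, with a list median of -0.68, and 0 were called in fast C6SPGFP cells, where 2 reached an unadjusted p below 0.05 and the median was 0.20. Tissue factor, F3, was at 5.74 ± 1.55 in C6 fast against 144 ± 41.3 in C6 slow cells (-3.45 ± 0.24, adjusted p = 8.84e-05) and at 106 ± 3.52 in C6SPGFP fast against 48.6 ± 6.53 in C6SPGFP slow cells, which was not called. The matrix protein gene Ccn1 fell in C6 (-1.49 ± 0.33, 0.0303), a call lost without either C6 fast array, C6 slow replicate 1 or C6SPGFP fast replicate 2 (0.0511 to 0.159). Between the sets 2 were lower in slow C6SPGFP cells, Ankrd1, given above, and F3 (-1.41 ± 0.24, 0.0121, lost without either C6SPGFP slow array or C6 slow replicate 1, 0.0568 to 0.109). In fast cells F3 was higher in C6SPGFP (3.06 ± 0.24, 8.21e-05). The medians between the sets were -0.50 in slow and 0.13 in fast cells.

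Of 19 genes of serum response factor and smooth muscle that are tied to Fhl2, 1 rose and 1 fell in fast C6 cells, 0 were called in fast C6SPGFP cells, where 5 reached an unadjusted p below 0.05, and 2 were higher and 0 lower in slow and 1 higher and 2 lower in fast C6SPGFP cells than in C6 cells, with medians of -0.04, -0.05, 0 and -0.07. Egr1 rose in fast C6 cells by 0.78 ± 0.16 (adjusted p = 0.0226), a call lost without any C6 array or C6SPGFP slow replicate 1 (0.0501 to 0.086). The calponin gene Cnn3 changed by -0.76 ± 0.13 (0.0114), a call lost without C6 fast replicate 2 or without C6 slow replicate 1 (0.0638 and 0.0758). Of 22 crystallin, detoxification and cell cycle genes tied to Maf, 0 rose and 1 fell in fast C6 cells, 1 rose in fast C6SPGFP cells, and 1 was higher and 3 lower in slow and 2 higher and 1 lower in fast C6SPGFP cells, with medians of -0.01, 0.14, -0.05 and 0.01. The quinone reductase Nqo1 rose in fast C6SPGFP cells, at 1490 ± 504 against 355 ± 0.371 (2.0 ± 0.22, 0.00401), and in slow cells was lower in C6SPGFP, against 1800 ± 362 in C6 (-2.30 ± 0.22, 0.00117). Heme oxygenase, Hmox1, was lower in C6SPGFP at either speed, by -1.63 ± 0.24 in fast (0.0023) and -1.89 ± 0.24 in slow cells (0.00356). The small heat shock protein gene Cryab changed by -1.46 ± 0.28 in fast C6 cells (0.0158), a call lost without C6 fast replicate 2 or C6 slow replicate 1 (0.0704 and 0.0932).

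Of 21 imprinted genes and genes tied to Plagl1, 1 rose and 3 fell in fast C6 cells, 0 were called in fast C6SPGFP cells, where 4 reached an unadjusted p below 0.05, and 1 was higher and 1 lower in slow and 4 higher and 2 lower in fast C6SPGFP cells, with medians of 0.25, -0.01, 0.14 and -0.14. The tetraspanin gene Cd81 was at 2.44 ± 0.301 in C6 fast against 151 ± 48.2 in C6 slow cells (-3.90 ± 0.23, adjusted p = 4.45e-05), and at 356 ± 45.4 in C6SPGFP fast cells (5.12 ± 0.23 against C6 fast cells, 4.88e-06). Igfbp5, which binds insulin-like growth factors, fell in fast C6 cells, at 4.58 ± 0.358 against 48 ± 12.4 (-2.14 ± 0.24, 0.000931). The receptor Igf2r rose in fast C6 cells by 0.83 ± 0.15 (0.0112), a call lost without C6 fast replicate 2 or C6 slow replicate 1 (0.0546 and 0.0691), and in fast cells was lower in C6SPGFP by -1.15 ± 0.15 (0.00122).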

How the data were processed

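The arrays were rat oligonucleotide arrays read as 1 table of 8799 probe sets. The deposited values, made by the authors, are linear intensity signals. The software behind them was not given in the sources used here, and no detection calls were used, so a signal of a few units may be background. Replicates were not stated to be separate cultures, and 2 arrays a group limit the precision.

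Signals were quantile normalised and taken as log2 of the signal plus 8. Probe sets with a mean of at least 8 were tested (6684), and 2056 were left out. Means of the 4 groups were fitted over all 8 arrays by limma 3.58.1 in R 4.3.3 (lmFit, eBayes with a trend, two-sided, Benjamini-Hochberg adjustment at 5% over all tested probe sets), with 4 residual and 4.49 prior degrees of freedom. The fit was also run on simulated data, with changes planted only in C6 fast cells and only in probe sets above the median signal. That run does not bear on low signals or on the other comparisons. Comparisons that share arrays are not independent. Means and SDs are of normalised signals.

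Names came from the platform table: 7018 probe sets had a single symbol, 308 several and 1473 none, and 6994 were updated through Entrez identifiers in a GRCr8 table. In lists, a gene stands by its brightest probe set. Named were all members, the 3 genes most like each member, up to 4 called regulators per direction and comparison, up to 2 called genes per direction of the other lists, and the glial markers Vim, S100b and Cnp (Gfap was not analysed here). The members and lists were chosen with earlier results of these data known, and the relatives were picked from the lists after their values had been seen. Figures were drawn with matplotlib 3.10.9. Replicate numbers were not used as pairs. Alternatives were another scaling, pseudocount, filter, variance model and set of arrays, a replicate block, and leaving out each array.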

Additional observations from a re-analysis of the deposited data

Results flagged for a closer look

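The change of fast minus slow cells differed between C6SPGFP and C6 for 255 of 6684 probe sets (3.82%) by the test of the difference itself (limma, adjusted p). Those named here are 18 genes of the regulator and target lists with the largest differences in either direction. Others that passed include the regulator Rxrg (1.38, adjusted p = 0.0403) and the markers S100b (2.55, 0.000433), Gad1 (1.70, 0.0187), Nes (1.62, 0.013) and Cnp (1.31, 0.0243). The difference, C6SPGFP minus C6 on the log2 scale, was positive for Ccl2 (5.17, adjusted p = 0.000245), Sox10 (4.62, 0.000126), F3 (4.47, 0.00022), Cd81 (3.88, 0.000415), Nr4a1 (2.61, 0.0114), Il6 (2.10, 0.0355), Nqo1 (2.0, 0.0111), Lhx2 (1.70, 0.00979), Epcam (1.63, 0.0283), Gsta1 (1.60, 0.0391), Klf4 (1.41, 0.0104), Col1a1 (1.24, 0.0355) and Cnn3 (0.90, 0.0386). It was negative for Ptgs2 (-3.97, 0.000415), Nr2f2 (-2.33, 0.00186), Igf1 (-2.24, 0.0386), Egr1 (-1.45, 0.0111) and Mta1 (-1.19, 0.0417). When arrays were left out in turn, the calls of Col1a1 (adjusted p 0.0549 to 0.149) and Mta1 (0.052 to 0.192) were lost in all 8 runs. Those of Gsta1 (0.0576 to 0.156) were lost in 7, all but that without C6 slow replicate 2. Of the calls lost in 6 runs, Epcam (0.0662 to 0.128) and Cnn3 (0.104 to 0.152) kept theirs without C6 fast replicate 1 or C6 slow replicate 2, Il6 (0.0737 to 0.126) without C6 fast replicate 1 or C6SPGFP slow replicate 2, and Igf1 (0.0729 to 0.158) without either C6 fast array. Klf4 and Lhx2 lost theirs without C6SPGFP fast replicate 2 or C6SPGFP slow replicate 1, Egr1 without C6SPGFP replicate 1 of either speed, and Nr4a1 without C6SPGFP fast replicate 2.

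Among the 9 regulators, 4 probe sets moved one way on every fast array of one set and the other way in the other set. The difference of their changes, given with no p because the genes were chosen for it, was -4.23 for Pou3f3, 5.25 for the brightest Rhox5 probe set, -0.50 for another Rhox5 probe set and -2.31 for Fhl2. For Fhl2 in C6SPGFP the signals behind the direction were 3.78 and 4.53 in fast against 6.5 and 5.72 in slow cells, near the bottom of the scale.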

How the results depend on the processing

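All 40 called member values kept their sign under every setting that could give them, which is no support, since the genes were chosen on these contrasts. Not all kept their calls: the deposited scaling left 2, 1, 1, 0 and 4 member probe sets called, against 11, 5, 5, 7 and 12, in the comparisons named next. The deposited scaling left 20 probe sets called in C6, 15 in C6SPGFP, 24 on the difference, 2 between the sets in slow and 182 in fast cells, against 445, 93, 255, 424 and 1042, and of the other regulators 1, 0, 1, 0 and 4, against 22, 3, 8, 16 and 31. It moved the median log2 change of all probe sets to 1.04, 1.08 and 1.11 in the 3 comparisons with C6SPGFP fast cells (C6SPGFP, difference, sets in fast cells), since 1 of their arrays is on another scale. The share of calls that were higher was then 100%, 95.8% and 94%, against 76.3%, 71% and 53.2%. In fast cells it turned 4 named changes between the sets, Igf2r to 0 (against -1.15), Itga7 to 0.50 (-0.57), Tcf4 to 0.06 (-1.16) and Tpm1 to 0.10 (-0.93). Fitting only the arrays of the comparison, with fewer samples, gave 230 calls in C6 and 270 between the sets in slow cells, and 6 other regulators in C6.

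Leaving out each array in turn gave 279 to 446 calls in C6, 21 to 107 in C6SPGFP, 123 to 273 on the difference, 95 to 421 between the sets in slow and 509 to 1127 in fast cells. Of the other regulators it left 11 to 20, 0 to 4, 3 to 11, 4 to 17 and 18 to 36. Of 37 named calls of regulators 21, and of 56 named calls of other lists 29, were lost on at least 1 leave-out. A median filter gave 12 regulators on the difference. With the replicate number as a block, 424, 87, 235, 392 and 989 probe sets were called, and 10 of 11 member probe sets in C6 (1 Cebpb call lost) and 4 of 5 in C6SPGFP (Rhox5 lost), but the numbers share no stated batch, and the correlations of the deviations of same-numbered arrays ran from -0.127 to 0.266. With 2 arrays a group, no level of a few units is settled.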

Other observations

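Of the 210 other regulators, the helix-loop-helix genes had 5 calls in fast against slow C6 cells, all rises: Max, Hif1a, Id3, Hand2 and Bhlhe41, of 32 tested (15.6%, against 6.66% of all probe sets called and 2.69% called higher). The family was noticed after its values were seen, and nothing particular to it was tested. The last 2, whose log2 changes were 1.15 ± 0.23 and 1.0 ± 0.19 (SE), were picked here after their values were seen. Hand2 was at 6.84, 6.68, 26.6 and 7.56 in C6SPGFP fast, C6SPGFP slow, C6 fast and C6 slow cells. It passed the filter on a mean of 8 only through the group where it was high, so its call is no support. Of 19 homeobox genes Lhx2 (-1.07 ± 0.18) and Msx2 (-1.0 ± 0.23) fell, 10.5%, against 6.66% of all probe sets called, likewise picked afterwards. Of 21 leucine zipper genes 0 were called in C6 or in C6SPGFP by limma, with 5 and 2 at an unadjusted p below 0.05. Between the sets in fast cells, 3 leucine zipper genes were lower in C6SPGFP. They were Fosl1 (-0.79 ± 0.19, adjusted p = 0.0239, limma), Fosl2 (-0.82 ± 0.21, 0.031) and Atf2 (-0.80 ± 0.23, 0.0487), the first 2 being AP-1 proteins. These calls are 14.3% of the family, against 15.6% of all probe sets called. Atf2 lies close to the threshold, and these genes were likewise picked after their values were seen. The AP-1 gene Fos went the other way, at 173 ± 17.1 in C6SPGFP fast against 108 ± 12.1 in C6 fast cells, which was not called. In slow cells Fos was called higher in C6SPGFP (0.97 ± 0.21), a call lost in 5 of 8 leave-outs. The clock repressor Nr1d2 was higher in C6SPGFP, by 0.86 ± 0.20 in fast and 1.0 ± 0.20 in slow cells.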
